A study of Mus musculus with 12 samples.

Results

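Melanoma tumours whose injected cells had galectin-3 silenced were compared between hosts that lacked galectin-3 and hosts that had it. The 6 arrays of these tumours, of 12 in the series, were taken by their labels, and all 1246 probe sets of the array were compared. In 3 of them the Tm1G3 melanoma line, labelled Gal3 silenced, had been injected into Gal3 -/- mice (knockout hosts). The other 3 held Tm1G3 tumours of wild-type mice, labelled WT. The remaining 6 arrays held tumours of Tm1N3, the line labelled Gal3 expressing, 3 from each host. They shared in the estimate of spread and served to ask whether a host difference was the same size in both lines. The question addressed was what galectin-3 made by the host does in tumours of the line labelled as silenced. The labels give no strain or age of the mice, no tumour size, no time of collection and no tissue amount. The series' design text calls the hosts syngeneic and speaks of overexpression from a galectin-3 coding plasmid as well as of silencing, and the names of both lines are used here as the labels give them.

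Galectin-3, encoded by Lgals3, is a lectin that binds sugars ending in galactose on glycoproteins. It is found in the cytoplasm and nucleus and is also secreted, and outside the cell it crosslinks receptors and matrix proteins. Macrophages, epithelial cells and many tumour cells make it, and it has been studied for its part in inflammation, in the growth of blood vessels and in the clearance of cells. The array is a focused one, with genes for glycan-building enzymes, lectins, cytokines, chemokines, growth factors and their receptors. RNA came from tumour tissue, which holds injected melanoma cells beside host cells such as leukocytes, vessels and fibroblasts. A lower signal from fewer cells of a type and from less RNA per cell cannot be told apart in such tissue.

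Lgals3 itself did not separate the hosts. Its 1 probe set read 9.15, 9.80 and 8.98 in knockout hosts and 9.52, 9.33 and 9.99 in wild-type hosts, so the groups overlapped. In Tm1N3 tumours it read 9.35, 9.69 and 10.55 in knockout and 9.80, 9.72 and 10.39 in wild-type hosts, and the Tm1G3 values overlapped these. The difference between the hosts of Tm1G3 tumours, -0.30 ± 0.33 (SE), had a two-sided exact permutation p of 0.4, where 0.1 is the smallest that 3 against 3 arrays can give. The suffix of the probe set marks probes that similar transcripts can share, and no source used here tells whether it lies in the part that the mice lack. It therefore does not check the genotype labels, nor, since no source tells how it lies to a silencing sequence or a plasmid, those of the lines.

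For all but 24 of 1246 probe sets the means of both hosts of Tm1G3 tumours lay within 0.5 of each other on the log2 scale. Igfbp4, a binding protein gene of insulin-like growth factors, the channel gene Mcoln3, the receptor gene Kit and the cytokine genes Tgfb1 and Tgfb3 were higher on all 3 knockout arrays than on any wild-type array, by 0.36 to 0.61 on the log2 scale on leading probe sets. Tgfb3, at 0.36, was 0.20 without knockout replicate 1. Csf3, Ccr1 and Cd209e, of myeloid growth, chemokine and lectin genes, were lower on all 3, by differences of -0.70, -0.53 and -0.24. Much of the first 2 came from wild-type replicate 1, without which Csf3 differed by -0.24 and Ccr1 by -0.25. Inflammatory cytokine and chemokine genes such as Il1b, Cxcl2 and Ccl3 had lower knockout means only through 1 wild-type array. None of these differences passed the test. Over all probe sets 155 of 1246 (12.4%) had groups that did not overlap, in either direction.

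Between the hosts of Tm1G3 tumours no probe set passed after adjustment at 0.05 (limma with Benjamini-Hochberg adjustment, 0 of 1246, 0%, smallest adjusted p = 0.531). An unadjusted limma p under 0.05 was found for 77 probe sets, 6.18% of those tested, where 62.3 are expected by chance. Of these 54 (4.33%) were higher and 23 (1.85%) lower in knockout hosts. With each array centred on its own median the split was 55 higher and 12 lower. None of the 20 alternative settings gave a call, and their smallest adjusted p ran from 0.0793 to 0.984. Same-numbered arrays of both hosts deviated together, and with the replicate number as a block there were still 0 calls, while unadjusted p values under 0.05 numbered 133 with a random block (81 higher and 52 lower) and 119 with a fixed block (83 higher and 36 lower). Every gene value below is therefore a measured difference that did not pass the test, with adjusted p values of 0.531 or above.

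The 95% intervals, not adjusted over probe sets, give the precision of these differences. The median SE of a host difference was 0.10 on the log2 scale, and the 95% interval reached 0.22 to either side of the difference for the median probe set, a factor of 1.16. For 450 probe sets (36.1%) the whole interval lay within 1.2-fold in both directions, for 1061 (85.2%) within 1.5-fold and for 1177 (94.5%) within 2-fold. A difference over 0.5 on the log2 scale in either direction was measured for 24 probe sets, and over 1 for 1 probe set, Fgf21. Groups did not overlap for 155 probe sets (12.4%), 83 (6.66%) higher and 72 (5.78%) lower in knockout hosts. With no host difference, 3 against 3 arrays would separate in either direction with a probability of 0.1. Over all probe sets 586 (47%) had a positive and 660 (53%) a negative difference, with a median of -0.01. With 3 arrays a group, and no label saying that each replicate was a separate mouse, the p values speak for the spread of these arrays alone, which may be technical.

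**Figure D1:**
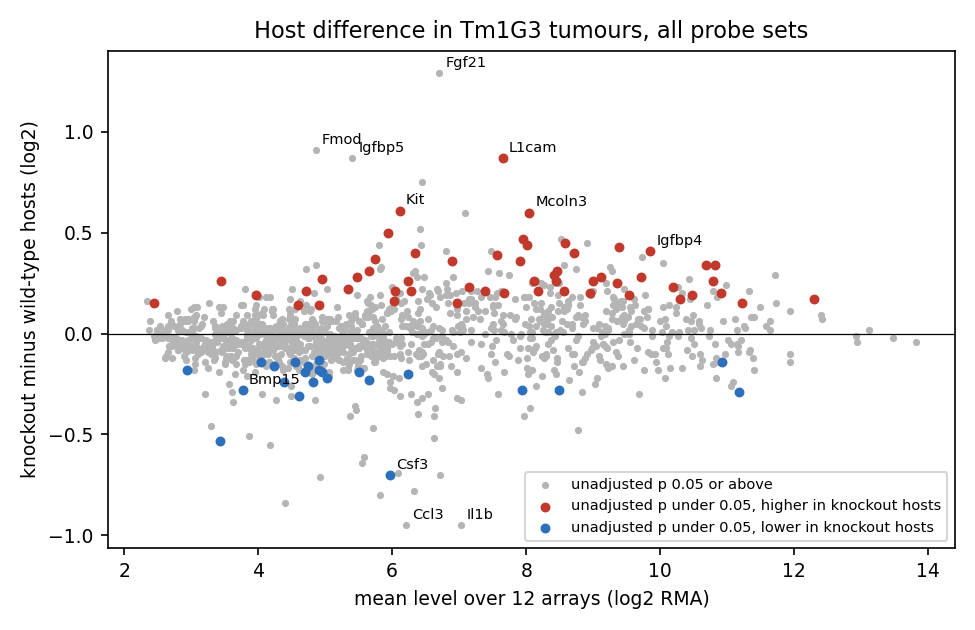
Host difference of every probe set (knockout minus wild-type hosts, log2) against its mean level over 12 arrays (log2 RMA), 1 point a probe set. Red and blue points had an unadjusted limma p under 0.05, 54 higher and 23 lower in knockout hosts, and none passed after adjustment. The red points lie mostly at bright levels, and Fgf21 stands highest at 1.29.

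The higher and the lower probe sets sat at different levels. The 54 higher ones had a median level at the 75.1 percentile of probe sets and the 23 lower ones at the 38.1 percentile. Of the dimmest 25% of probe sets 38.9% had a positive difference, of the next 25% 33.3%, of the 25% after those 53.7%, and of the brightest 25% 62.2%. A gene family on this array is thus to be read beside its brightness, whose part in the differences was not tested.

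Wild-type replicate 1 stood apart from the other Tm1G3 arrays. Its correlation across probe sets was 0.985 with wild-type replicate 2 and 0.984 with replicate 3, against 0.994 between those 2 arrays and 0.992 to 0.998 among knockout arrays. The leading principal component of the 6 arrays held 48.9% of their variance, of which 6.59% lay between hosts. On it wild-type replicate 1 was at -10.6 and the other 5 arrays were between -1.39 and 3.54. The component after it, with 24.1%, had 44.4% of its variance between hosts, and there knockout replicate 1 was highest, at 7.47. Where leaving out either array turns a difference or moves it by more than 1.5 times, the value without it is given below for genes with an unadjusted p under 0.05, and for others that the text turns on.

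Wild-type replicate 1 exceeded all 11 other arrays of the series by more than 1 on the log2 scale for 12 probe sets, all of them named: Il1b, Cxcl2, Ccl3, Il1a, Il6, Il1r2, Csf3, Clec4e, Cxcl1, Csf3r, Adgre1 and Ccl4. None of the 6 arrays lay more than 1 below all 11 others for any probe set. Il1b, which encodes the fever cytokine interleukin-1 beta, was at log2 levels of 7.46, 6.75 and 6.82 in knockout hosts and 11.08, 6.45 and 6.35 in wild-type hosts. A single wild-type array was thus far above the rest, and the other 2 lay below all 3 knockout arrays. The host difference was -0.95 ± 1.03 (SE, n = 3 arrays a group) with that array and 0.61 without it.

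Cxcl2, a chemokine that draws neutrophils, showed the same shape. Its levels were 6.02, 6.43 and 5.25 in knockout hosts and 10, 5.19 and 4.90 in wild-type hosts. The difference was -0.80 ± 1.26 (SE) with all arrays and 0.85 without wild-type replicate 1, so its sign is that of 1 array. Ccl3, which draws macrophages and T cells, was at 6.26, 6.21 and 5.56 against 8.91, 5.83 and 6.13, a difference of -0.95 ± 0.72 (SE) that came to 0.03 without it. The related chemokine gene Ccl4 went from -0.52 ± 0.41 (SE) to 0.01. Il6, for the acute-phase cytokine interleukin-6, stood at 4.32, 3.88 and 4.11 against 5.87, 3.96 and 4.13, and its difference of -0.55 ± 0.42 (SE) came to 0.06. For Il1r2, the decoy receptor of interleukin-1, the difference of -0.78 came to -0.06, and for Csf3r, the receptor of the neutrophil growth factor G-CSF, -0.61 came to -0.11. Adgre1, the macrophage marker F4/80, came from -0.69 to -0.04, and Clec4e, the macrophage lectin Mincle, from -0.46 to 0.04.

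Csf3 was the exception among these 12 in its p value. This gene encodes G-CSF itself. Its log2 levels were 5.56, 5.82 and 5.80 in knockout hosts and 7.35, 5.93 and 6 in wild-type hosts, so that every wild-type array was above every knockout array. The difference was -0.70 ± 0.30 (SE, limma unadjusted p = 0.0382). This SE and p draw on the spread of all 4 groups, Tm1N3 tumours included. In Tm1G3 tumours the SD was 0.80 in wild-type and 0.14 in knockout hosts. Without wild-type replicate 1 the difference was -0.24 (limma unadjusted p = 0.0244). Il1a, for interleukin-1 alpha, kept a negative sign, with -0.84 ± 0.43 (SE) and -0.18 without that array, as did the neutrophil chemokine gene Cxcl1, with -0.71 ± 0.39 (SE) and -0.14.

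**Figure D2:**
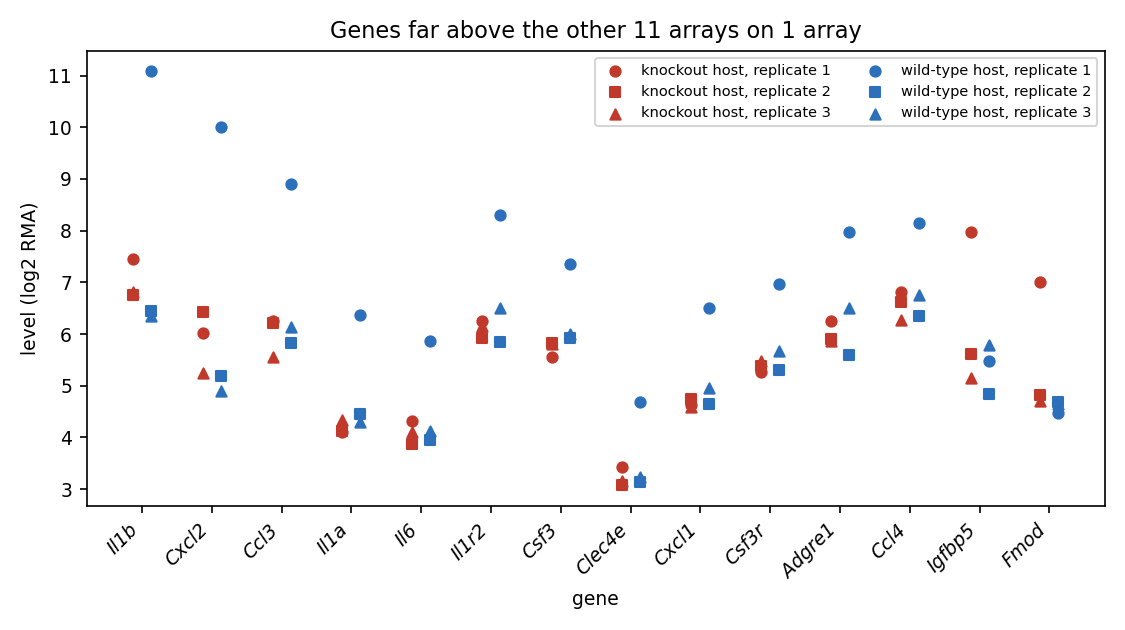
Levels (log2 RMA) of the 12 genes for which wild-type replicate 1 exceeded all 11 other arrays by more than 1, and of Igfbp5 and Fmod, for which knockout replicate 1 did, 1 point an array for the 6 Tm1G3 arrays. For Il1b the blue circle of wild-type replicate 1 is at 11.08 and the other 5 points lie between 6.35 and 7.46.

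The promoters of these 12 genes were searched because the genes stood together on 1 array and several are textbook targets of NF-kappaB, a factor that inflammatory signals switch on. Of the 12 genes, 9 had an entry in the RefSeq table of promoters (GRCm38.p6), from which the 250 bases before each start site were searched on both strands for GGG followed, after any 2 bases, by TTTCC, a form of the NF-kappaB motif. The motif was found in 3 of the 9, and in 464 of 32851 windows of the whole table (1.41%). The genes were picked by their values on 1 array and searched with known targets in mind. These counts are therefore a description and not a test, and a part of NF-kappaB in that array was not tested. A match is a description of the letters and not a measured site. The windows of the 3 genes with the motif follow, and those of the other 6 are not printed, 5′ to 3′ on the plus strand, with the motif in capitals. Cxcl2 lies at chr5:90903649-90903898 with matches beginning at -97 and -78 from the start site, Il6 at chr5:30012864-30013113 with 1 match at -44, and Cxcl1 at chr5:90890995-90891244 with matches at -89, on the minus strand, and -71.
Cxcl2: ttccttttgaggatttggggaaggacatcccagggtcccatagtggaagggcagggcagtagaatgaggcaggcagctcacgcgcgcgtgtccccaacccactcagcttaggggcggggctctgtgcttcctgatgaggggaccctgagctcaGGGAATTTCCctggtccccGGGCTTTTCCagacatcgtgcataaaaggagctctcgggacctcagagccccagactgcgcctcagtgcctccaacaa
Il6: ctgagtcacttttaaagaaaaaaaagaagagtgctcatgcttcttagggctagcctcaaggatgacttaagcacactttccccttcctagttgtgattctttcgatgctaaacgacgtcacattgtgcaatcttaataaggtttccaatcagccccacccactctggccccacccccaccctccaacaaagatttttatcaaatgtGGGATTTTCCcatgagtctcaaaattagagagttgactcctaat
Cxcl1: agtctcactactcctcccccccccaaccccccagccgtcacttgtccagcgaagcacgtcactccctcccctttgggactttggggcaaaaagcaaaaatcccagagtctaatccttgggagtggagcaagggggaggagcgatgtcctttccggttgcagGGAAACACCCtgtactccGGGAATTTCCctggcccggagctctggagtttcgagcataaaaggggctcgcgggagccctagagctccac

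Knockout replicate 1 stood out for 2 genes of matrix and growth factor binding. Igfbp5, which encodes a binding protein for insulin-like growth factors, was at 7.97, 5.62 and 5.15 in knockout hosts and 5.48, 4.85 and 5.79 in wild-type hosts. Fmod, for the collagen-binding proteoglycan fibromodulin, was at 7.00, 4.83 and 4.70 against 4.48, 4.68 and 4.65. Both differences rested on that array. For Igfbp5 it was 0.87 ± 0.65 (SE), and 0.01 without the array. For Fmod it was 0.91 ± 0.47 (SE), and 0.16 without the array. Wild-type replicate 3 stood out for 1 gene, Cxcl9, an interferon-induced chemokine, at 6.16 where the other 2 wild-type arrays were at 4.17 and 4.35.

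The galectins are a family of lectins with the same sugar-binding fold. Of 10 measured members, Lgals3 included, 3 had a positive and 7 a negative difference, with a median of -0.05 beside 0.00 over 909 named genes, and none had an unadjusted p under 0.05. Lgals7, the galectin of stratified epithelia, was at 7.29, 7.52 and 7.48 in knockout and 7.04, 7.05 and 7.29 in wild-type hosts, higher in all knockout arrays with the closest pair equal after rounding (difference 0.30 ± 0.21, SE), and Lgalsl, a galectin-like gene, was lower in all of them, at 7.38, 7.60 and 7.74 against 7.78, 7.78 and 7.76 (-0.20 ± 0.13, SE, and -0.10 without knockout replicate 1). Lgals1, which stood highest of the family's log2 signals, differed by -0.04 ± 0.09 (SE), and Lgals9, a galectin of immune cells, by 0.13 ± 0.29 (SE) with all arrays and -0.22 without wild-type replicate 1. Lgals4 of the gut lining differed by 0.22 ± 0.21 (SE), and by 0.05 without knockout replicate 1. The 10 measured genes for known binding partners of galectin-3, such as Lamp1 and Lamp2 of the lysosome membrane and the adhesion receptor Cd44, had differences between -0.18 and 0.13. Cd44 held the lowest of these, at -0.18 ± 0.10 (SE), and was at -0.09 without wild-type replicate 1.

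The smallest p of the comparison belonged to Igfbp4, which encodes a binding protein that holds insulin-like growth factors away from their receptor. Its log2 levels were 10.03, 10.01 and 9.90 in knockout hosts and 9.66, 9.49 and 9.56 in wild-type hosts. All knockout arrays were above all wild-type arrays. The difference was 0.41 ± 0.08 (SE, 95% interval 0.23 to 0.60), a fold of 1.33 (limma, unadjusted p = 0.000464, adjusted p = 0.531). Both further probe sets of Igfbp4, whose suffixes mark shared probes, also had groups that did not overlap, with differences of 0.34 and 0.26 (limma unadjusted p = 0.000852 and 0.022). These probe sets read the same RNA and are not separate replicates.

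Among the genes with the next smallest p values on the higher side was Slc35b1, a nucleotide transporter of the endoplasmic reticulum membrane, at 10.98, 10.84 and 10.81 against 10.46, 10.76 and 10.42 (0.34 ± 0.09, SE). Its groups did not overlap. Alg12 and Alg1, mannosyltransferases of the N-glycan precursor, had differences of 0.29 ± 0.10 and 0.25 ± 0.09 (SE). Rpn1, a subunit of the oligosaccharyltransferase that moves that precursor onto proteins, differed by 0.50 ± 0.16 (SE), with 1 wild-type array above 1 knockout array. P3h1, a prolyl hydroxylase of collagen, differed by 0.26 ± 0.09 (SE).

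The other genes on the higher side were a channel and signalling genes. Mcoln3, an endolysosomal cation channel gene, was at 8.07, 7.83 and 7.72 against 7.20, 7.60 and 7.03, higher on all knockout arrays by 0.60 ± 0.18 (SE, 95% interval 0.20 to 1.00) or 1.52-fold. Havcr2, which encodes the checkpoint receptor TIM-3, was 0.21 ± 0.07 (SE) higher, the interleukin-23 subunit gene Il23a 0.37 ± 0.13 (SE) and the lambda interferon receptor gene Ifnlr1 0.31 ± 0.10 (SE). For Tgfbr2, a receptor of TGF-beta, a probe set at the 57.8 percentile of level differed by 0.16 ± 0.05 (SE) and its brightest probe set by 0.11 ± 0.22 (SE), so the probe sets agreed in sign and differed in precision.

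**Figure D3:**
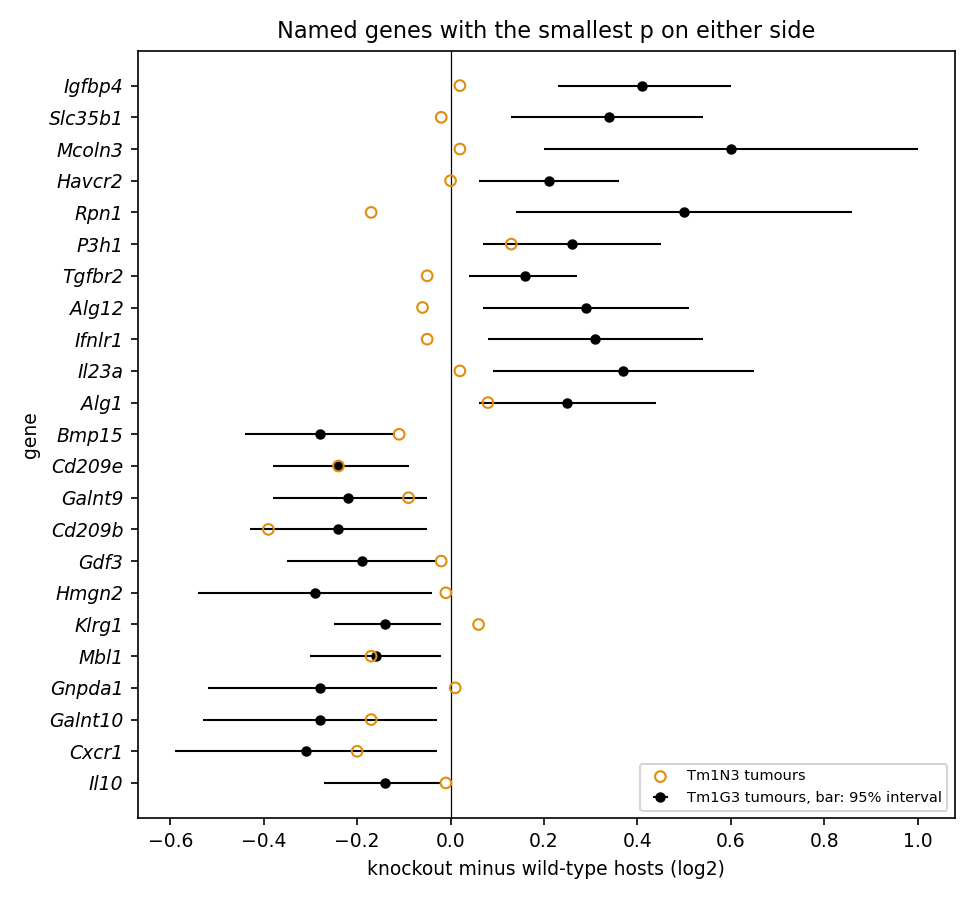
Host difference (knockout minus wild-type, log2) of the named genes among the 12 with the smallest p on either side in Tm1G3 tumours. Black points with bars are Tm1G3 tumours with their 95% interval, open circles the same difference in Tm1N3 tumours. Igfbp4 is at 0.41 in Tm1G3 and 0.02 in Tm1N3 tumours, and Cd209e is at -0.24 in both.

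The 12 genes with the smallest p on the lower side were mostly dim, and their differences were small. Bmp15, a growth factor of the oocyte, was at 3.79, 3.80 and 3.84 in knockout and 4.09, 3.97 and 4.2 in wild-type hosts (-0.28 ± 0.07, SE), at the 16.2 percentile of level. Cd209e and Cd209b, mouse relatives of the dendritic cell lectin DC-SIGN, each differed by -0.24, with SE of 0.06 and 0.09. Cd209e read 4.14, 4.15 and 4.26 against 4.35, 4.42 and 4.49. A second probe set of Cd209b, at the 17.3 percentile, differed by -0.01 ± 0.09 (SE). The mannose-binding lectin gene Mbl1 (-0.16), the killer-cell receptor gene Klrg1 (-0.14), Gdf3 of the TGF-beta family (-0.19) and Il10, for an anti-inflammatory cytokine (-0.14), also had groups that did not overlap at low levels. The brightest on this side was Hmgn2, a nucleosome-binding protein gene, at 10.77, 11.05 and 11.18 against 11.24, 11.37 and 11.26 (-0.29 ± 0.11, SE, and -0.18 without knockout replicate 1), and its probe set may be shared with similar sequences. Galnt9 and Galnt10, which start O-glycans, differed by -0.22 and -0.28, the amino sugar deaminase gene Gnpda1 by -0.28, and Cxcr1, a neutrophil receptor for chemokines, by -0.31, or -0.20 without knockout replicate 1.

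Whether these differences belonged to the galectin-3 silenced line was asked by setting the host difference in Tm1G3 tumours against that in Tm1N3 tumours. No probe set passed this test of the difference (limma, 0 of 1246, 0%, smallest adjusted p = 0.996). As none passed, no gene was shown to respond to the host in 1 line only. For 35 (2.81%) the unadjusted limma p was under 0.05, where 62.3 are expected by chance. No call was made in any of the 18 alternatives run for it either. In Tm1N3 tumours the host difference also gave 0 calls (0%, smallest limma adjusted p = 0.963) and 54 unadjusted p values under 0.05 (4.33%). The host differences of both lines, which share no array, correlated at 0.167 across probe sets, and 729 probe sets (58.5%) had the same sign in both, a description over probe sets that are not independent.

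Kit had the widest gap between the lines among the 5 genes with the smallest p of this test. It encodes the receptor of stem cell factor, found on melanocytes and mast cells. In Tm1G3 tumours its levels were 7.22, 6.91 and 6.62 in knockout and 6.20, 6.36 and 6.35 in wild-type hosts, and in Tm1N3 tumours 4.91, 5.76 and 5.41 in knockout and 5.91, 6.07 and 5.62 in wild-type hosts. The host difference was 0.61 ± 0.21 (SE) in the former, without overlap, and -0.51 ± 0.21 (SE) in the latter, with overlap. These differed by 1.12 ± 0.30 (SE, 95% interval 0.45 to 1.78, limma unadjusted p = 0.00367, adjusted p = 0.996). Igfbp4 differed between hosts by 0.41 in Tm1G3 and 0.02 in Tm1N3 tumours on its leading probe set (limma unadjusted p of the difference = 0.00622), and the wild-type Tm1G3 arrays, at 9.66, 9.49 and 9.56, were the lowest 3 of all 12. Cd72, a receptor of B cells, differed by 0.44 and -0.28 (limma unadjusted p = 0.0102), Rpn1 by 0.50 and -0.17 and the lysosomal ceramidase gene Asah1 by 0.17 (0.10 without wild-type replicate 1) and -0.19. On the lower side Cd209e and Cd209b had negative host differences in both lines, of -0.24 and -0.24 for Cd209e and -0.24 and -0.39 for Cd209b.

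**Figure D4:**
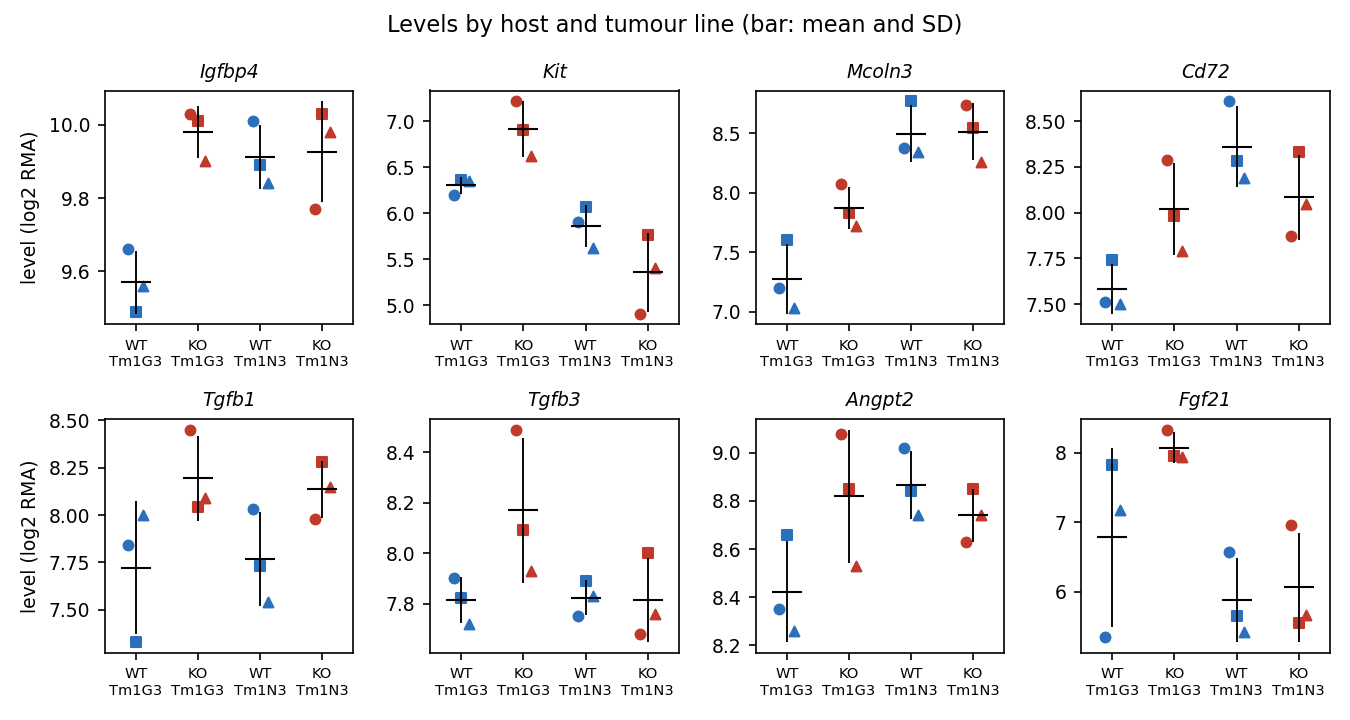
Levels (log2 RMA) of 8 genes on all 12 arrays by host and tumour line, 1 symbol a replicate number, with the mean and SD as a black bar. Kit is higher in knockout than in wild-type hosts of Tm1G3 tumours and lower in knockout hosts of Tm1N3 tumours by the mean. For Fgf21 wild-type replicate 1 of Tm1G3 is at 5.35.

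Angiogenic genes were of interest because the series' design speaks of the vessel response. Of 19 measured factors and receptors of vessel growth 14 had a positive and 5 a negative difference. Their median was 0.07 (0.02 without knockout replicate 1) beside 0.00 over all named genes. There were 2 with an unadjusted p under 0.05, both higher, beside 41 higher and 18 lower among 909 named genes. Angpt2, which loosens vessel walls, was at 9.08, 8.85 and 8.53 in knockout and 8.35, 8.66 and 8.26 in wild-type hosts. The groups overlapped by 1 array, and the difference was 0.40 ± 0.15 (SE, limma unadjusted p = 0.0219). Angptl1, an angiopoietin-like gene at low levels, differed by 0.26 ± 0.12 (SE), and by 0.16 without knockout replicate 1. Vegfa, the main vessel growth factor, was at 9.29, 8.99 and 8.58 against 8.92, 9.44 and 8.99 (-0.16 ± 0.22, SE). Vegfc, the lymphatic factor, differed by 0.15 ± 0.07 (SE) without overlap. The endothelial markers (10 measured) had a median of 0.10, with 6 positive and 4 negative, and a median of 0.00 without knockout replicate 1. Pecam1, the junction protein CD31 of endothelium, was at 9.13, 8.70 and 8.63 against 8.59, 8.07 and 8.40, above the wild-type range on all knockout arrays (0.47 ± 0.25, SE, limma unadjusted p = 0.0877, and 0.31 without knockout replicate 1). Without that array Emcn, an endothelial mucin, went from 0.17 ± 0.29 (SE) to -0.08, Icam2 from 0.14 ± 0.12 (SE) to 0.04 and Cd34 from 0.12 ± 0.30 (SE) to -0.05.

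Of the TGF-beta family, whose members restrain immune cells and drive matrix deposition, 36 genes were measured, 19 positive and 17 negative, with a median of 0.02, or -0.02 without knockout replicate 1. An unadjusted p under 0.05 was found for 2 higher and 1 lower, the latter being Bmp15, beside 41 higher and 18 lower among 909 named genes. Tgfb1 was at 8.45, 8.04 and 8.09 in knockout and 7.84, 7.33 and 8 in wild-type hosts (0.47 ± 0.19, SE, limma unadjusted p = 0.0296). Tgfb3 was at 8.49, 8.09 and 7.93 against 7.90, 7.82 and 7.72 (0.36 ± 0.13, SE, limma unadjusted p = 0.0227), a difference of 0.20 without knockout replicate 1. Neither gene's groups overlapped. In Tm1N3 tumours Tgfb1 differed by 0.37 and Tgfb3 by -0.01, and neither difference between the lines had an unadjusted p under 0.05 (0.714 and 0.0813 in limma).

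Fgf21 and L1cam had the widest positive differences beside the genes that rested on knockout replicate 1. Fgf21, a hormone-like growth factor induced by metabolic stress, was at 8.33, 7.95 and 7.94 in knockout and 5.35, 7.82 and 7.18 in wild-type hosts. All knockout arrays were above all wild-type arrays, but most of the difference of 1.29 ± 0.59 (SE, 2.45-fold, limma unadjusted p = 0.0515) came from the low value of wild-type replicate 1, and it was 0.58 without that array. L1cam, a neural adhesion molecule that melanoma cells can carry, was at 8.82, 8.21 and 8.32 against 8.32, 7.59 and 6.84 (0.87 ± 0.37, SE, limma unadjusted p = 0.0404), with an overlap of 1 array. It was 0.50 without wild-type replicate 3 and 1.24 without wild-type replicate 1.

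Leukocyte markers were counted because the host supplies these cells. The neutrophil list had 7 measured genes, all negative, with a median of -0.33, and -0.03 without wild-type replicate 1, where 4 were negative and 3 positive. Its median level on the 6 arrays was 5.01, 4.58 and 4.60 in knockout and 5.70, 4.62 and 4.77 in wild-type hosts. Of its members, Cxcr2, the main chemokine receptor of neutrophils, came from -0.18 to 0.21 without that array, and Cxcl5, a neutrophil chemokine, from -0.51 to -0.03. Cxcr1 stayed at -0.29 and the myeloid receptor gene Clec5a at -0.14. Only 7 of 18 genes of the list were measured, and S100a8, S100a9 and Ly6g, which define neutrophils, were not among the named probe sets.

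The 11 measured macrophage markers had a median of -0.03, with 0.04 without wild-type replicate 1 and -0.16 without knockout replicate 1. Of them 5 were positive and 6 negative, or 8 and 3 without wild-type replicate 1. Adgre1 and Clec4e, both of this list, differed by -0.69 and -0.46, and by -0.04 and 0.04 without that array. Havcr2 was the 1 member with an unadjusted p under 0.05, beside 41 higher and 18 lower among 909 named genes. Cd209a, a lectin of dendritic cells and macrophages, differed by 0.32 ± 0.21 (SE), or 0.19 without wild-type replicate 1, and Mgl2, a galactose-binding lectin of macrophages, by 0.32 ± 0.36 (SE) with all arrays, 0.02 without wild-type replicate 1 and -0.09 without knockout replicate 1. The 17 T and NK cell markers had a median of -0.03, with 7 positive and 10 negative. Among them 1 had an unadjusted p under 0.05, Klrg1, which was lower in knockout hosts (-0.14). The chemokine gene Ccl5 of T cells differed by 0.25 ± 0.17 (SE), and by 0.13 without wild-type replicate 1. Of 9 dendritic cell markers 6 were positive with a median of 0.05, or 5 with a median of 0.00 without wild-type replicate 1. Over the 909 named genes 448 were positive. Ly75, the endocytic receptor DEC-205, differed by 0.27 ± 0.11 (SE) without overlap of the groups, and by 0.18 without wild-type replicate 1. Among 4 B cell markers Cd72 was at 8.29, 7.98 and 7.79 against 7.51, 7.74 and 7.5 (0.44 ± 0.16, SE), while Cd22, a further B cell lectin, differed by -0.06 ± 0.10 (SE).

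The spread of platelet genes between arrays of the same host was wide for Ppbp and narrower for Pf4. The 4 measured genes were all positive, with a median of 0.28, or 0.53 without wild-type replicate 1 and 0.14 without knockout replicate 1. Ppbp, a platelet chemokine, was at 7.90, 6.77 and 5.90 in knockout and 7.83, 6.15 and 4.35 in wild-type hosts. The first array of each host was the highest, and the difference of 0.75 ± 1.06 (SE) was -0.13 without wild-type replicate 3. Pf4, platelet factor 4, was at 9.76, 9.41 and 9.17 against 9.67, 8.81 and 8.85 and differed by 0.33 ± 0.72 (SE). That SE also draws on the Tm1N3 arrays, which ran from 7.95 to 11.2. Only 3 melanocyte markers were measured, Kit, Mcoln3 and the adhesion molecule gene Mcam, with differences of 0.61, 0.60 and 0.13. Mcam was at -0.01 without knockout replicate 1. The pigment genes that define melanocytes were not among the named probe sets, so the tumour cells' own identity was not checked.

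Chemokines and their receptors did not share a direction. Of 29 chemokines 11 were positive and 18 negative, with a median of -0.06, or 0.01 without wild-type replicate 1, and none had an unadjusted p under 0.05. Both probe sets of Cxcl12, a chemokine of stromal cells, went opposite ways, at 0.60 ± 0.31 and -0.70 ± 0.69 (SE), so no direction is given for it. Of 20 receptors 6 were positive and 14 negative. An unadjusted p under 0.05 was found for 1 higher and 2 lower receptors, the latter being Ccr1 and Cxcr1. Over the 909 named genes 41 higher and 18 lower had such a p. Ccr1, a receptor of Ccl3, was at 3.19, 3.25 and 3.18 in knockout and 4.31, 3.42 and 3.5 in wild-type hosts, lower on every knockout array (-0.53 ± 0.22, SE, limma unadjusted p = 0.0384), and by -0.25 without wild-type replicate 1. Cxcr3, a receptor of activated T cells, was the 1 receptor with an unadjusted p under 0.05 on the higher side (0.39 ± 0.17, SE). It differed by 0.18 without wild-type replicate 1 (limma unadjusted p = 0.191). Of 34 interleukins and other cytokines 10 were positive and 24 negative, or 16 and 18 without wild-type replicate 1. Il17b, of the interleukin-17 family, differed by 0.43 ± 0.17 (SE, limma unadjusted p = 0.0298) and did not overlap.

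**Figure D5:**
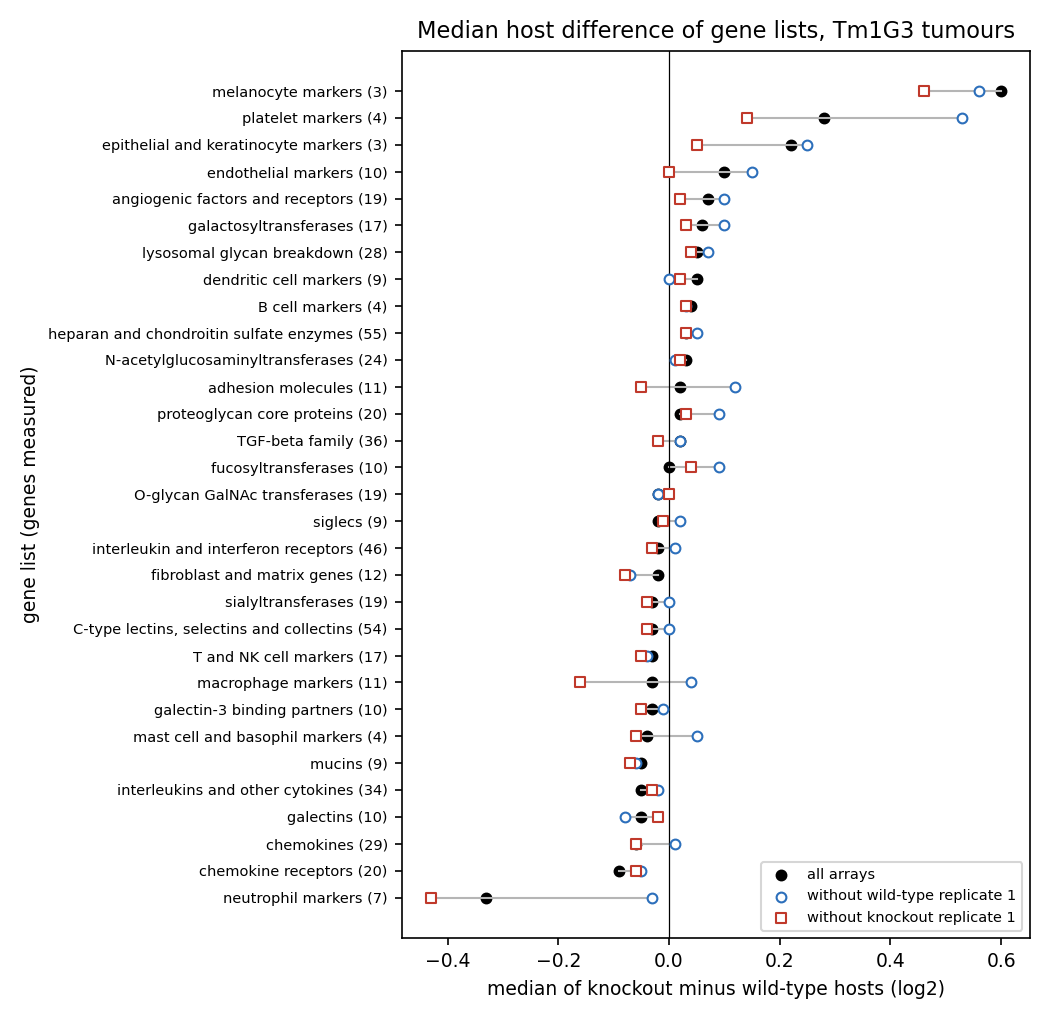
Median host difference (knockout minus wild-type, log2) of each gene list in Tm1G3 tumours, with the number of genes measured in brackets. Filled points use all arrays and open circles leave out wild-type replicate 1 and open squares knockout replicate 1. The neutrophil list lies lowest at -0.33 and is at -0.03 without wild-type replicate 1, and the melanocyte list lies highest at 0.60 with 3 genes.

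The enzymes that build the glycans galectins bind differed little. Among the 909 named genes 41 higher and 18 lower had an unadjusted p under 0.05, and the counts below stand beside that share. Sialyltransferases, which cap galactose with sialic acid, had 19 measured genes, none with such a p and all between -0.15 and 0.13. The 24 N-acetylglucosaminyltransferases, which set the branching of N-glycans, lay between -0.22 and 0.20, and Mgat5, whose branch galectin-3 is known to favour, was at -0.09 ± 0.09 (SE). Of 17 galactosyltransferases 1, B4galt7 of the proteoglycan linker, had an unadjusted p under 0.05 (0.15 ± 0.05, SE). Fut10 was the 1 of 10 fucosyltransferases with such a p (0.36 ± 0.15, SE), and its second probe set did not separate the groups, at 6.71, 6.89 and 6.78 in knockout and 6.67, 6.74 and 6.58 in wild-type hosts. The 9 measured siglecs, lectins for sialic acid, had none and lay between -0.12 and 0.09, and the 9 mucins lay between -0.11 and 0.17.

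Of 55 measured heparan and chondroitin sulfate enzymes 37 had a positive difference, with a median of 0.03. There were 3 with an unadjusted p under 0.05, all higher, beside 41 higher and 18 lower among 909 named genes: B4galt7, the sulfotransferase gene Chst2 (0.22 ± 0.09, SE) and Ext2, a heparan sulfate polymerase subunit gene (0.19 ± 0.08, SE, and 0.12 without knockout replicate 1). Of 28 lysosomal enzymes of glycan breakdown 21 were positive, with a median of 0.05, or 17 without wild-type replicate 1. Over the 909 named genes 448 were positive. The members with an unadjusted p under 0.05 were Sgsh, a heparan sulfatase (0.21 ± 0.09, SE), and Asah1. Hexa, for a subunit of beta-hexosaminidase, differed by 0.24 ± 0.12 (SE), with 11.22 on wild-type replicate 1 among the knockout values of 11.24, 11.22 and 11.14. Of 19 GalNAc transferases that begin O-glycans, Galnt2 differed by 0.28 ± 0.11 (SE) and Galnt9 and Galnt10 went the other way, as given above.

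Genes for the assembly and transfer of the N-glycan precursor were gathered after their values had been seen, so their count supports nothing and is given as a description. Of 16 measured genes 13 were positive, the median was 0.16, and 6 had an unadjusted p under 0.05, all higher: Rpn1, Alg12, Alg1, Alg5, Alg8 and Dpagt1. Over the 909 named genes 448 were positive, the median was 0.00, and 41 higher and 18 lower had such a p. Alg5, which makes the glucose donor of the precursor, was at 9.21, 9.12 and 9.07 in knockout and 8.83, 9.02 and 8.79 in wild-type hosts (0.26 ± 0.10, SE). Dpagt1, which starts the precursor, was at 9.13, 9.07 and 8.96 against 8.87, 8.88 and 8.81 (0.20 ± 0.08, SE). Alg8, a glucosyltransferase, differed by 0.28 ± 0.11 (SE) with overlap, and Alg6, the glucosyltransferase that acts before it, by -0.30 ± 0.17 (SE). In Tm1N3 tumours the same 6 genes differed by between -0.17 and 0.08. Most of the 6 sit at bright levels, where positive differences were the more frequent over the whole array.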

How the data were processed

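RNA of 12 tumour samples was extracted with Trizol and hybridised as biotin-labelled cRNA to Affymetrix arrays, as the labels' protocols state. The values the authors deposited are on a log2 scale after RMA, per the submitters' processing notes, which give no version. RMA corrects background, quantile normalizes and summarises probes, so a shift of all genes on 1 array is removed. Values ran from 2.14 to 13.9, and array medians lay within 0.0945 of each other. Signal over background was not examined. Of 1246 probe sets 963 matched 1 symbol through their RefSeq accession, for 909 symbols, 261 had UCSC-style names, 21 RefSeq names had no match and 1 name was of another kind. The suffix of 275 probe sets marks shared probes. No arrays were identical.

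A model of 4 group means over 12 arrays was fitted with limma 3.58.1 in R 4.3.3, with p values adjusted by Benjamini-Hochberg over all probe sets at 0.05. The comparisons were the host difference in each line and the difference of both. Errors are moderated SE. A list uses the brightest probe set of each gene, and was described by counts and its median. The procedure was tested on simulated data. Genes named are the 12 with the smallest unadjusted p on either side, as none passed, the 5 of the difference of differences, Lgals3, and up to 10 or the 5 leading members of each of 31 lists. Genes outside that rule, such as Fgf21, Vegfa, those of single arrays and the N-glycan precursor list, were chosen after their values were seen. Some genes that the rule takes in are not reported here. The members, lists and rule were chosen with earlier results of these data known. Alternatives were the fit on 6 arrays, renewed quantile normalization, median centring, no dimmest 25% of probe sets, array weights, a trend in eBayes, the replicate block and leaving out each of 12 arrays.

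Replicate numbers are shared between hosts in the labels. Deviations of same-numbered Tm1G3 arrays correlated at 0.249 to 0.308, against -0.319 to 0.203 for other numbers. Each same-numbered pair was over 0.1, so the numbers were taken as pairs in the alternatives with a replicate block. The main fit, which gave the SE, intervals and p values printed for genes, left the arrays unpaired. What the replicate numbers mean is not stated in the labels. Each title also opens with a number of its own. All such numbers of knockout hosts are lower than all those of wild-type hosts. Their meaning is not stated either, and anything they stand for cannot be told apart from the host.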

Additional observations from a re-analysis of the deposited data

How the results depend on the processing

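No alternative made a call, and of 100 genes followed 0 passed and 17 changed sign under at least 1 alternative. The count of probe sets with an unadjusted p under 0.05 was 77 and became 155 with array weights, 133 and 119 with the replicate number as a random and as a fixed block, and 35 to 112 with 1 array left out. The low end was 35 without KO_Tm1G3 replicate 1, followed by 49 without KO_Tm1G3 replicate 2. The replicate block changed no call. The share of these higher in knockout hosts was 70.1%, ran from 60.9% (random block) to 82.1% (median centring), and was 61.9% with array weights. In the block and weighted fits more probe sets were lower, 52 and 59 against 23.

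Without WT_Tm1G3 replicate 1 the sign turned for 8 genes, and over the arrays left out Il1b ran from -1.76 to 0.61, Cxcl2 from -1.70 to 0.85, Il6 from -0.90 to 0.06, Ccl3 from -1.51 to 0.03, Ccl4 from -0.89 to 0.01, Clec4e from -0.74 to 0.04, Cxcr2 from -0.41 to 0.21 and Lgals9 from 0.49 to -0.22, the last value of each being the one without that array. Array weights turned Cxcl2 (0.24), Lgals9 (-0.07) and Mgl2 (-0.09). Without KO_Tm1G3 replicate 1 it turned for Lgals1 (0.03, range from -0.10), Emcn (-0.08, range to 0.37), Mgl2 (-0.09, range to 0.58), Cd34 (-0.05, range to 0.27) and Mcam (-0.01, range from -0.02 to 0.33). Without WT_Tm1G3 replicate 3 it turned for Ppbp (-0.13, range to 1.61), Cxcl9 (0.32, range from -0.67), Cd22 (0.06, range from -0.15) and Mcam (-0.02). Vegfa, with a range from -0.33, turned without KO_Tm1G3 replicate 3 (0.03) and without WT_Tm1G3 replicate 2 (0.00), and Cd34 also without the latter (-0.04). Of 31 list medians 1, that of the fucosyltransferases (0.09 without WT_Tm1G3 replicate 1), moved by more than 1 SD of the arrays. That SD includes the array left out, so a list that rests on 1 array has a wide limit. The neutrophil median went from -0.33 to -0.03 without WT_Tm1G3 replicate 1 and was not counted as moved. The count does not show that the other medians were stable. The cause of each was not tested. With 3 arrays a group, the size of difference that could pass varied with each gene's spread.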
